A study of Mus musculus with 8 samples.

Results

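Enteroendocrine cells are the hormone-secreting cells of the gut lining, and 9 genes that mark how they are made and what they store were compared between crypts of the small intestine (SI) and of the colon (COL). The 9 were picked by symbol, by a rule that uses no measured value, from the 45706 genes of the 2 count tables. Earlier results of these data were known when the choice was made. The 9 are the transcription factors Neurog3, Neurod1, Pax4, Pax6, Insm1 and Isl1, the granule proteins Chga and Chgb, and the serotonin-synthesis enzyme Tph1. RNA was sequenced from SI crypts and COL crypts of 4 wild-type mice of the C57BL/6N strain, 2 female and 2 male, and each mouse gave 1 library of either tissue. None of the groups carried an allele or received an agent, and the age of the mice is not given in the sources used here. The libraries are named SI1 to SI4 and COL1 to COL4, and the same number marks the same mouse. Crypts were released with EDTA and their total RNA was taken whole, so that stem, absorptive, goblet, Paneth, tuft and enteroendocrine cells entered 1 library together. In such bulk samples, fewer cells of a type and less RNA per cell cannot be told apart.

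Enteroendocrine cells arise from crypt progenitors that escape Notch signalling and switch on Atoh1, and a burst of Neurog3 then commits them. Neurog3 is transient, whereas its target Neurod1 and the zinc-finger repressor Insm1 stay on during differentiation, and Pax4, Pax6 and Isl1 take part in sorting cells among hormone-producing subtypes. Mature cells pack hormones into dense-core granules that hold the chromogranins Chga and Chgb. Enterochromaffin cells, a subtype found in both small and large intestine, make serotonin with Tph1, the rate-limiting enzyme outside the nervous system.

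Neurog3 and Neurod1 are basic helix-loop-helix proteins, a class that binds E-boxes, and promoters of granule genes are known for cyclic AMP response elements. The 250 bases before the start of Neurog3 and Chga are shown because they stand for the head of the cascade and for its most used marker, and a stretch of 30 bases is shown for Chgb. All are RefSeq sequence of build GRCm38.p6 on the plus strand. Capitals mark E-boxes (CANNTG) and the response element (TGACGT, or TGACGTCA in full, which contains TGACGT), searched on both strands.
Neurog3, chr10:62132840-62133089: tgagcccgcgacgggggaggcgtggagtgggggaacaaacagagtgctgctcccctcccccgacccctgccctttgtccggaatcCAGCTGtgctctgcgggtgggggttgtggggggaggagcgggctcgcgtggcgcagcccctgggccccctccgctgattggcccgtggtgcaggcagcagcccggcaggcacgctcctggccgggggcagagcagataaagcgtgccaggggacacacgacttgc
Chga, chr12:102554691-102554940: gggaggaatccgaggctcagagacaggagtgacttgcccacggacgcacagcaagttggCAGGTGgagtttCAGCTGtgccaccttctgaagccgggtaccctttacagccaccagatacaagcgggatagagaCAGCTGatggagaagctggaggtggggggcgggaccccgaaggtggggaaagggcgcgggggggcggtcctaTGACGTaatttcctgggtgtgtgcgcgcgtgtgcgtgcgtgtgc
Chgb, chr2:132781559-132781588: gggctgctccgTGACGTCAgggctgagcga
The Neurog3 window held 1 E-box, 165 bases before the start. The Chga window held 3 E-boxes, 191, 179 and 116 bases before the start, and the shorter response element 44 bases before it. The full 8-base element lay 72 bases before the RefSeq start of Chgb. It was not confined to granule genes. Among the transcription factors, Pax6 held the full element 76 bases before 1 start and the shorter one 48 bases before another. Isl1 held the shorter one 59 bases before its start, and no window of Tph1 held either form. Among 32851 promoter windows of 250 bases, 66.2% held an E-box, 6.47% held TGACGT and 1.55% held TGACGTCA, so an E-box alone sets none of these windows apart. The table matched 7 of the 9 genes, all but Pax4 and Insm1.

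On GRCm38 with the GENCODE vM21 annotation, the 9 loci lie on 6 chromosomes. Chga (ENSMUSG00000021194) spans chr12:102554969-102565028 on the plus strand in 8 exon blocks, Chgb (ENSMUSG00000027350) spans chr2:132781278-132795079 on the plus strand in 5, and Tph1 (ENSMUSG00000040046) spans chr7:46644641-46672537 on the minus strand in 12. Neurog3 (ENSMUSG00000044312), at chr10:62133090-62134763 on the plus strand, is a single-exon gene, and 15.4% of its 50-base stretches also lie in the exons of the opposite-strand gene Fam241b. For Neurod1, at chr2:79452521-79456751 on the minus strand, 9.66% of such stretches are shared with Cerkl and Gm26755. Whether counting used the strand is not stated, so reads in the overlaps with Fam241b and Gm26755 cannot be assigned with certainty. Cerkl lies on the same strand as Neurod1, where a strand setting could not separate the reads. The other 7 genes shared at most 0.787% of their 50-base stretches with another gene.

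The libraries held 15969428 to 32908060 counted reads, and the 9 genes together took 0.012% to 0.0582% of them. Mitochondrial transcripts took 4.83% to 7.35% of the reads in 4 libraries (numbers 1 and 4 of SI, numbers 3 and 4 of COL) and 22.7% to 50.8% in the other 4, so each tissue had 2 libraries of either kind. The tissue labels held up against their markers. Of 6 enterocyte genes, 6 were higher in SI, with a summed level of 35076 to 94629 CPM (a gene's counts for every 1000000 of the library) against 10.4 to 104.1 in COL, and 3 of 5 colonocyte genes were higher in COL while 1, Ms4a12, was higher in SI. SI1 had the most extreme sums of SI for stem cell, Paneth cell and enterocyte markers. Its 5 stem cell markers summed to 30.7 CPM against 217.0 to 310.4 in SI2 to SI4, its 5 Paneth cell markers to 555.8 against 1667.6 to 3864.2, and its enterocyte markers were the highest of all libraries. SI4 lay nearest SI1 in the Paneth cell and enterocyte markers. Its enterocyte markers summed to 59261 CPM, against 35076 in SI2 and 36737 in SI3. Of the stem cell markers, Olfm4 reached 5019 counts in a library and the others at most 703, so that sum leans on Olfm4. Levels are given as CPM of the library total after scaling by the trimmed mean of M values (TMM), and every log2 fold change is SI against COL, so that a positive value is higher in SI.

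No difference between SI and COL crypts in any of the 9 genes passed the test against the spread between mice. In the quasi-likelihood test of edgeR, adjusted over 14491 genes by the Benjamini-Hochberg method, 0 of 9 had an adjusted p below 0.05, where 28.4% of all genes tested did (15.5% higher in SI, 12.9% higher in COL). An unadjusted p below 0.05 was reached by 0 of 9, against 39.8% of all genes. The levels of SI and COL overlapped for 9 of 9, whereas 33.5% of all genes had levels that did not overlap. DESeq2 and limma-voom also called 0 of 9, with 0 at an unadjusted p below 0.05, where they called 35.3% and 32.4% of all genes. With the mouse as a block, without a filter and with mitochondrial share as a covariate, edgeR likewise called 0 of 9, against 28.1%, 13.7% and 38.1% of all genes. With at least 10 counts asked of every library, 6 of the 9 were tested and 0 called, against 30.1%. Leaving out SI2, SI3, SI4, COL1, COL2, COL3 or COL4 gave 0 of 9, against 29%, 24%, 20.7%, 21.2%, 29.6%, 24.2% and 24%, and leaving out SI1 is described with Neurog3. All 9 had passed the filter on low counts. The transcription factors had positive differences in 5 of 6 cases, with a median log2 fold change of 0.70, and the 3 granule and serotonin genes had negative ones, with a median of -0.64, beside a median of -0.09 over all genes tested.

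**Figure D1:**
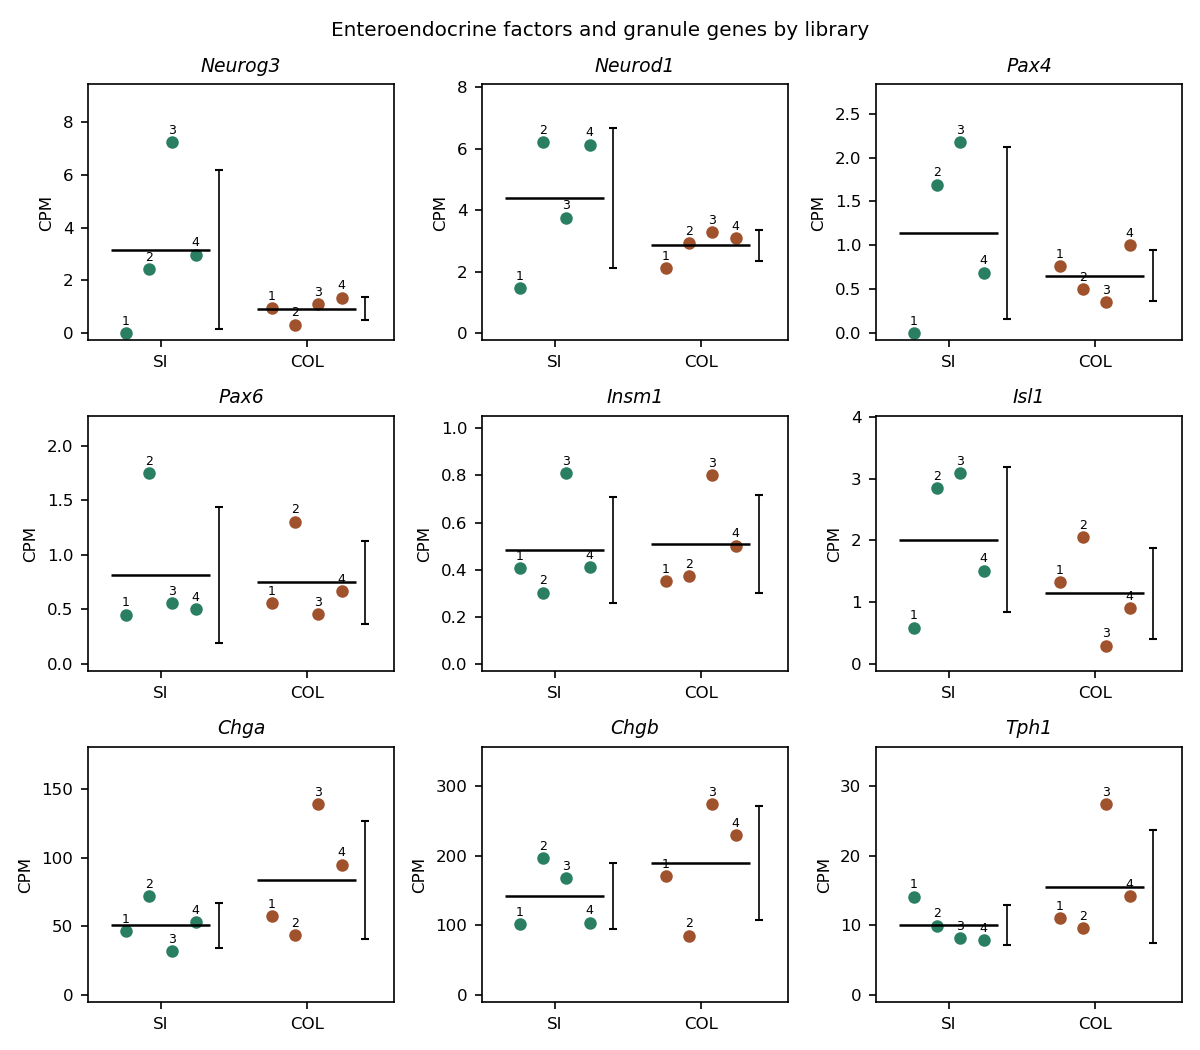
Level of each gene (CPM, y axis) in the 4 SI libraries (green) and 4 COL libraries (brown); the number at a point is the mouse, the line is the mean and the bar beside it the SD. The tissues overlap in every panel, and SI1 is at 0 for Neurog3 and Pax4.

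Neurog3, the factor that commits progenitors, had the largest difference of the 9 and, in SI, the widest spread relative to its mean. It was at 0, 2.42, 7.25 and 2.98 CPM in SI1 to SI4 and at 0.939, 0.311, 1.097 and 1.34 CPM in COL1 to COL4. SI2, SI3 and SI4 lay above all COL libraries and SI1 lay below them, with 0 counts, which allows a level of up to 0.136 CPM (counting error only). The means were 3.16 ± 3.02 CPM for SI and 0.922 ± 0.439 CPM for COL (SD, n = 4 each). The log2 fold change was 1.75 with a SE of 1.04 and a 95% interval of -0.52 to 4.03 (edgeR adjusted p = 0.236), and 3 of 4 mice had more in SI. Without SI1 it was 2.18 (edgeR adjusted p = 0.0283), 1 of 9 genes called where 22.3% of all genes were. Without SI1 and COL2, the library of smallest total and highest mitochondrial share, Neurog3 stood at 1.91 (edgeR adjusted p = 0.026), 1 of 9 against 27.3% of all genes, a choice made after the data were seen. Other settings moved it either way. It was 2.82 in the 4 libraries of higher mitochondrial share (edgeR adjusted p = 0.0844) and 0.29 in the 4 of lower share (edgeR adjusted p = 0.897). Whether these sets of libraries differ from each other was not tested. Without COL4 the value was 1.99 (edgeR adjusted p = 0.26). It was 0.95 without SI3 (edgeR adjusted p = 0.578) and 0.98 with library size alone (edgeR adjusted p = 0.459). limma-voom, which works on log values, gave 0.06 without the mouse as a block and 1.51 with it (limma-voom adjusted p = 0.981 and 0.196). That SI1 also had the lowest summed stem and Paneth cell markers in SI is a measured fact, and its part in the Neurog3 result was not tested.

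Neurod1, the direct target of Neurog3, was at 1.45, 6.22, 3.75 and 6.13 CPM in SI1 to SI4. In COL1 to COL4 it was at 2.11, 2.92, 3.29 and 3.08 CPM. The pattern over libraries was that of Neurog3, with SI1 below every COL library and the other SI libraries above. The mean was 4.39 ± 2.27 CPM in SI against 2.85 ± 0.515 in COL, for a log2 fold change of 0.62 (SE 0.48, 95% interval -0.44 to 1.68, edgeR adjusted p = 0.372). With reads scaled by library size alone the value was -0.10.

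Pax4, which favours serotonin- and somatostatin-producing fates, was listed at 0, 1.69, 2.18 and 0.687 CPM in SI1 to SI4 and at 0.763, 0.497, 0.348 and 1.01 in COL1 to COL4. SI2 and SI3 were above all COL libraries, while SI4 lay within their range and SI1 had no count. The log2 fold change was 0.78 with a 95% interval of -1.37 to 2.94 (edgeR adjusted p = 0.592). It turned to -0.48 in limma-voom and to -0.98 in the 4 libraries of lower mitochondrial share, so no direction can be given for Pax4.

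Isl1, a LIM-homeodomain factor of several hormone-producing subtypes, was at 0.589, 2.84, 3.09 and 1.51 CPM in SI1 to SI4 and at 1.32, 2.05, 0.294 and 0.90 CPM in COL1 to COL4. The 2 highest libraries were SI2 and SI3, and the lowest was COL3. The log2 fold change was 0.83 (95% interval -0.74 to 2.39, edgeR adjusted p = 0.421), and it stayed positive, at 0.16 to 1.52, in 19 other settings of scaling, model, filter and libraries. Between the 4 libraries of female mice it was -0.03.

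Insm1 and Pax6 had low levels and differences close to 0. Insm1, a repressor needed for the endocrine programme, had 5 to 16 counts in SI and 6 to 30 in COL. Its level was 0.302 to 0.811 CPM in SI and 0.352 to 0.802 CPM in COL, nearly the same range, and its log2 fold change was -0.08 (95% interval -1.51 to 1.35, edgeR adjusted p = 0.94). Pax6, which acts at hormone gene promoters, was at 0.453, 1.75, 0.558 and 0.504 CPM in SI1 to SI4 and at 0.557, 1.31, 0.455 and 0.67 CPM in COL1 to COL4. Both libraries of mouse 2 were the highest of their tissue for Pax6. Its log2 fold change was 0.14 (95% interval -1.38 to 1.66, edgeR adjusted p = 0.901), and its sign changed with the scaling and with SI2 or COL3 left out. These intervals allow a difference of over 2-fold either way.

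Chga and Chgb, the chromogranins of dense-core granules, were the most abundant of the 9 and had negative differences. Chga was at 46.3, 71.8, 32.1 and 53.1 CPM in SI1 to SI4 and at 57.2, 43.3, 139.1 and 94.9 CPM in COL1 to COL4. COL3 and COL4 lay above every SI library and COL1 and COL2 lay among them. The means were 50.8 ± 16.5 CPM for SI and 83.6 ± 42.9 CPM for COL (SD, n = 4 each). The log2 fold change was -0.72 with a SE of 0.39 and a 95% interval of -1.57 to 0.13 (edgeR adjusted p = 0.195), the smallest adjusted p of the 9, and 3 of 4 mice had more in COL.

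Chgb was at 102.1, 197.0, 167.5 and 104.0 CPM in SI1 to SI4 and at 170.7, 85.3, 274.9 and 229.9 CPM in COL1 to COL4. As for Chga, COL3 and COL4 were the highest, and COL2 was the lowest of all 8. Its log2 fold change was -0.42 (95% interval -1.28 to 0.45, edgeR adjusted p = 0.468).

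The chromogranin values depended on which libraries were compared. In the 4 libraries of lower mitochondrial share, COL had more Chga, at a log2 fold change of -1.24 (edgeR adjusted p = 0.0159), and more Chgb, at -1.30 (edgeR adjusted p = 0.00636), 2 of 9 genes called where 37% of all genes were. In the 4 of higher share, Chga stood at -0.04 (edgeR adjusted p = 0.971) and Chgb at 0.42 (edgeR adjusted p = 0.608), with 0 of 9 called and 14.8% of all genes. Whether these sets of libraries differ from each other was not tested, and with mitochondrial share as a covariate over all 8 libraries the values were -0.65 and -0.37. Without COL3 they were -0.36 and -0.18.

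Tph1 was at 14.1, 9.97, 8.16 and 7.83 CPM in SI1 to SI4 and at 11.1, 9.57, 27.5 and 14.2 CPM in COL1 to COL4. COL3 stood far above the rest, and SI1 and COL4 were level. The means were 10.02 ± 2.90 CPM in SI and 15.6 ± 8.16 CPM in COL, which gave a log2 fold change of -0.64 (SE 0.38, 95% interval -1.46 to 0.19, edgeR adjusted p = 0.236). Without COL3 the value was -0.21 (edgeR adjusted p = 0.702). Mast cells can also express Tph1. Of 7 mast cell markers, Cpa3, Fcer1a and Mcpt2 had at most 7 counts in any library, Mcpt1 at most 17, Tpsb2 at most 24 and Hdc at most 36. Of these 7, 2 passed the filter. Tpsb2 stood at a log2 fold change of -2.10 (edgeR adjusted p = 0.208), while Kit, which other crypt cells also express, had more in COL at a log2 fold change of -3.04. The 7 summed to 6.0 to 13.4 CPM in SI and 56.6 to 83.7 in COL, where nearly all of it was Kit, and the part of mast cells in the Tph1 values was not tested.

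Scaling mattered for these 3 genes. TMM factors were 0.727 to 0.798 in SI and 1.01 to 1.45 in COL. With library size alone, the median difference over all genes (log2) moved from -0.09 to -0.82 and the calls from 2253 higher in SI and 1863 higher in COL to 1115 and 4788. Under that scaling 40.7% of all genes were called, and so were 2 of 9, Chga at -1.50 (edgeR adjusted p = 0.0186) and Tph1 at -1.41 (edgeR adjusted p = 0.0166), both higher in COL. Set against that median, Chga stood at -0.63 with TMM and at -0.68 with library size alone, and Neurog3 at 1.84 and 1.80.

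**Figure D2:**
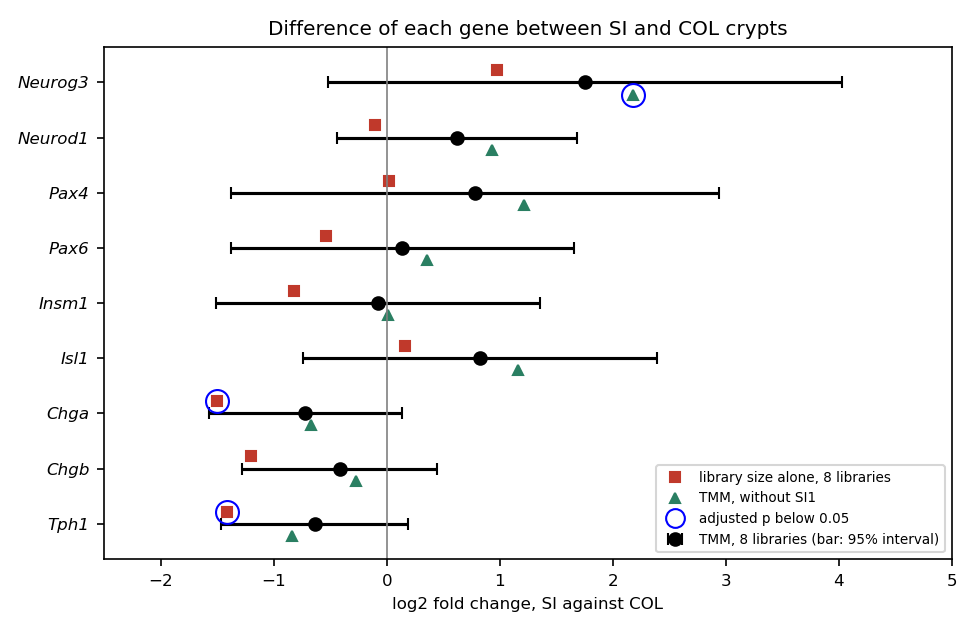
Log2 fold change of each gene, SI against COL (x axis), with TMM over 8 libraries and its 95% interval (black), with library size alone (red squares) and without SI1 (green triangles); blue rings mark an adjusted p below 0.05. Every black interval crosses 0, Neurog3 is ringed without SI1 only, and Chga and Tph1 with library size alone only.

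Set side by side, the 6 factors and the 3 granule and serotonin genes ran in different orders over the libraries. The factors summed to 2.90 CPM in SI1 and 12.22 to 17.6 CPM in SI2 to SI4, against 6.04 to 7.497 CPM in COL. The granule and serotonin genes summed to 162.5 to 278.7 CPM in SI and 138.2 to 441.5 CPM in COL. The factors thus made up 1.75% of the summed level of the 9 in SI1, 5.18% to 7.83% in the other SI libraries, and 1.40% to 5.12% in COL.

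**Figure D3:**
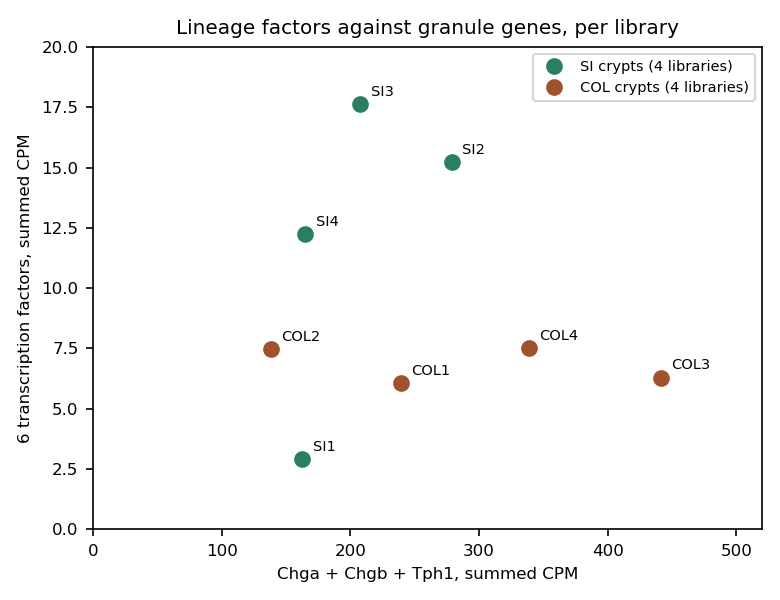
Summed level of the 6 transcription factors (CPM, y axis) against that of Chga, Chgb and Tph1 (CPM, x axis) in each of the 8 libraries. SI2, SI3 and SI4 sit above 12 CPM of factors, COL libraries between 6.04 and 7.497 CPM over a wide range of granule genes, and SI1 lowest at 2.90 CPM.

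Taking the ratio to Chga within a library removes the scaling. The log2 ratio of counts (0.5 added to each) was compared for the other 8 genes by an exact permutation test over the 70 assignments of 8 libraries, which cannot give less than 0.0286. No ratio passed, with an adjusted p of 0.857 for all 8. With that floor and adjustment over 8 ratios, no single ratio could fall below 0.05 on its own, so the test cannot exclude a difference. Neurod1 had the smallest p, with a log2 ratio of -3.67 ± 0.89 in SI and -4.74 ± 0.64 in COL (SD, n = 4 each), a difference of 1.07 (two-sided exact permutation p = 0.114). The ratio of Tph1 to Chga differed least, by 0.08, with values of -2.84 to -1.71 in SI and -2.74 to -2.17 in COL (two-sided exact permutation p = 0.857). Chgb had 1.96 to 5.22 counts for each count of Chga, and SI3 was the highest.

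Per length of exon, the order of levels was led by the same pair in either tissue. In SI, CPM per kilobase was 52.1 ± 17.3 for Chgb, 18.4 ± 5.98 for Chga, 1.89 ± 1.80 for Neurog3, 1.62 ± 0.47 for Tph1 and 1.61 ± 0.83 for Neurod1. Pax4 at 0.789, Isl1 at 0.507, Insm1 at 0.156 and Pax6 at 0.0698 CPM per kilobase followed. In COL the order was Chgb at 69.4 ± 29.9, Chga at 30.3 ± 15.6, Tph1 at 2.52 ± 1.32, Neurod1 at 1.04 ± 0.19 and Neurog3 at 0.551 ± 0.263 CPM per kilobase, with Pax4, Isl1, Insm1 and Pax6 in the order they had in SI. Neighbours in the order whose libraries did not overlap were Chgb and Chga and then Chga and Neurog3 in SI. In COL they were Chga and Tph1, Tph1 and Neurod1, and Insm1 and Pax6. All other neighbours overlapped, so Neurog3, Tph1 and Neurod1 cannot be ranked in SI. Within each library, Chgb was still above Chga and Neurod1 above Neurog3 in 4 of 4 COL libraries. In SI, Isl1 was above Insm1 in 4 of 4. The other overlapping neighbours kept their order in 1 to 3 libraries of a tissue. The length of Pax6, 11.7 kb over all annotated exons, exceeds that of any 1 transcript and lowers its value per kilobase.

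Among themselves, the genes varied together in some pairs and not in others. Over the deviations from tissue means in 8 libraries of 4 mice, which share depth and scaling within a library, Pearson's r was 0.92 for Neurog3 and Pax4 and 0.77 for Neurog3 and Neurod1. In SI1, Neurog3 and Pax4 had 0 counts and Neurod1 had its lowest level. How far that library carries these r values was not tested. Only some of the pairs are given here. For Chga, r was 0.74 with Tph1 and 0.70 with Chgb, but 0.12 with Neurog3. Isl1 ran opposite to Tph1, at -0.88, and to Chga, at -0.59. The SD was 95.4% of the mean for Neurog3 in SI and 47.7% in COL, and 33.2% and 43.1% for Chgb. Of 12571 genes with a mean of at least 1 CPM, those whose deviations were most like the mean of the 9 were Esrp1, an epithelial splicing regulator (r = 0.989), Pdik1l (0.986), Gm6169 (0.984), Eef1a1, a translation elongation factor (0.981), and Eme1 (0.979), over 8 libraries. These are the highest of 12571 values, and how high r reaches through such selection alone was not tested. The mean of the 9 was lowest in SI1, and it joins genes that ran opposite to each other.

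No dependence of the tissue difference on sex passed the test with 2 mice of either sex. In edgeR's interaction test, 0 of 9 genes and 0% of the 14491 tested had an adjusted p below 0.05, and at an unadjusted p below 0.05 there were 0 of 9 and 761 of all genes. Pax4 came nearest. It was lower in SI in both female mice (0 against 0.763 and 0.687 against 1.01 CPM) and higher in both male mice (1.69 against 0.497 and 2.18 against 0.348 CPM). The log2 fold change was 3.56 greater in males with a SE of 1.81 (edgeR unadjusted p = 0.0759, adjusted p = 0.909). With the mouse as a block, Pax4 was 1 of 9 at an unadjusted p below 0.05 as were 869 of all 14491 genes, and 0 of 9 and 0% of all genes were called.

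Of the other transcription factors of the lineage, a pair passed the test. Of 17, 13 passed the filter on low counts. None was higher in SI and 2 had higher levels in COL, where 15.5% and 12.9% of all genes tested were. The median log2 fold change over the 13 was 0.35. Those 2 are forkhead factors that also act in other endoderm-derived cells, including goblet cells. Foxa1 was at 0.986 ± 0.422 CPM in SI and 17.8 ± 6.08 in COL (log2 fold change -4.17, edgeR adjusted p = 4.79e-05), and Foxa2 at 0.811 ± 0.15 and 6.00 ± 3.18 CPM (-2.88, edgeR adjusted p = 0.00135). Of 6 goblet cell markers, 3 were higher in COL too, where 12.9% of all genes tested were, and 2 had positive differences that were not called. The 6 summed to 2356 to 7450 CPM in SI and 12061 to 23646 CPM in COL. The part of goblet cells in the Foxa result was not tested. Pdx1, a factor of the proximal gut and pancreas named here after its values were seen, fell under the filter with 0.0916 to 6.39 CPM in SI and 0 to 0.323 CPM in COL. It was called higher in SI without a filter, in the libraries of higher mitochondrial share, without SI1, without SI4, and without SI1 and COL2.

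Of 20 other granule and peptide processing genes, 18 passed the filter (Pcsk2 and Vgf did not). SI had more of 2 and COL more of 3, so 5 of 18 were called where 28.4% of all genes tested were, a similar share. The median was -0.35. Slc18a1, the vesicular monoamine transporter of endocrine cells, was at 21.3 ± 4.80 CPM in SI and 5.93 ± 2.05 in COL (log2 fold change 1.85, edgeR adjusted p = 0.00154). Higher in COL were Pam, which amidates peptide hormones, at 8.14 ± 2.40 against 31.0 ± 10.7 CPM (-1.93, edgeR adjusted p = 0.00128), and Ptprn2, a granule membrane phosphatase relative, at 1.28 ± 1.42 against 8.39 ± 2.47 CPM (-2.72, edgeR adjusted p = 0.00974). Pcsk1n, the proSAAS precursor, had 0 to 3 counts in SI and 7 to 34 in COL (edgeR adjusted p = 0.0136). Slc18a2, named here although it falls outside the rule for named genes, was higher in SI with 1.08 (edgeR adjusted p = 0.0376), and with the mouse as a block its adjusted p was 0.0569. With library size alone 1 gene was higher in SI and 6 were higher in COL, where 40.7% of all genes were called.

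Of the genes that handle serotonin, 7 of 11 passed the test, where 28.4% of all genes tested did. Tph1 did not pass, and the difference of these genes from Tph1 was not tested. All 11 passed the filter, 6 (among them Slc18a1 and Slc18a2 again) were higher in SI and 1 in COL, with a median log2 fold change of 1.503. Ddc, which completes serotonin synthesis, was at 348.3 ± 100.6 CPM in SI and 40.3 ± 13.9 in COL (log2 fold change 3.11, edgeR adjusted p = 0.000131). Slc6a4, the serotonin reuptake transporter, stood at 3.95 (edgeR adjusted p = 0.000102) and Maob, which degrades monoamines, at 4.35 (edgeR adjusted p = 3.08e-05). These 3 are also expressed by enterocytes, whose markers were higher in SI, and the part of enterocytes in the result was not tested. Adra2a, an adrenergic receptor of enterochromaffin cells, was higher in COL at 10.2 ± 2.53 against 1.18 ± 0.46 CPM (-3.12, edgeR adjusted p = 0.000231). Maoa was near the threshold (edgeR adjusted p = 0.0489). It and Slc18a2 were not called, and 5 of 11 were, with library size alone, without SI1, without SI4, without COL1, and without SI1 and COL2. Those settings called 20.7% to 40.7% of all genes.

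Upstream of Neurog3, 7 of 8 genes of the secretory fate switch passed the test, where 28.4% of all genes tested did. Of the 8, 2 were higher in SI and 5 in COL, with a median of -1.98. Atoh1, the factor of all secretory cells, was at 5.74 ± 1.78 CPM in SI and 33.2 ± 5.89 in COL (log2 fold change -2.53, edgeR adjusted p = 0.000142). Spdef, a goblet and Paneth cell factor, stood at -3.37 (edgeR adjusted p = 0.000146) and Sox9, of stem and Paneth cells, at -2.98 (edgeR adjusted p = 0.000241). The Notch ligand Dll1 was higher in SI at 2.49 (edgeR adjusted p = 0.00188). With library size alone 1 was higher in SI and 6 in COL, and in the libraries of higher mitochondrial share 0 and 5. Those 2 settings called 40.7% and 14.8% of all genes. Of 6 goblet cell markers, 3 were also higher in COL, Muc2, Agr2 and Spink4, at -4.10, -3.83 and -2.79. The other markers were not called, and 2 of the 6 had positive differences. The part of goblet cells in the Atoh1 and Spdef results was not tested. Atoh1 was thus higher in COL, while Neurog3 had a positive difference that did not pass the test.

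Most of the peptide hormones that these cells release passed the test. Of 11, 10 passed the filter and 7 were called, 4 higher in SI and 3 in COL, beside 28.4% of all genes tested. Gip, the incretin of K cells, had 612 to 1931 counts in SI and 0 to 5 in COL. Insl5, of colonic L cells, had 0 counts in every SI library and 146 to 415 in COL, at least 53.8-fold higher against a floor of 3 counts per library. Gcg, of L cells, stood at a log2 fold change of -4.16 (edgeR adjusted p = 0.000159) and Ghrl, of ghrelin cells, at 4.30 (edgeR adjusted p = 2.96e-05).

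**Figure D4:**
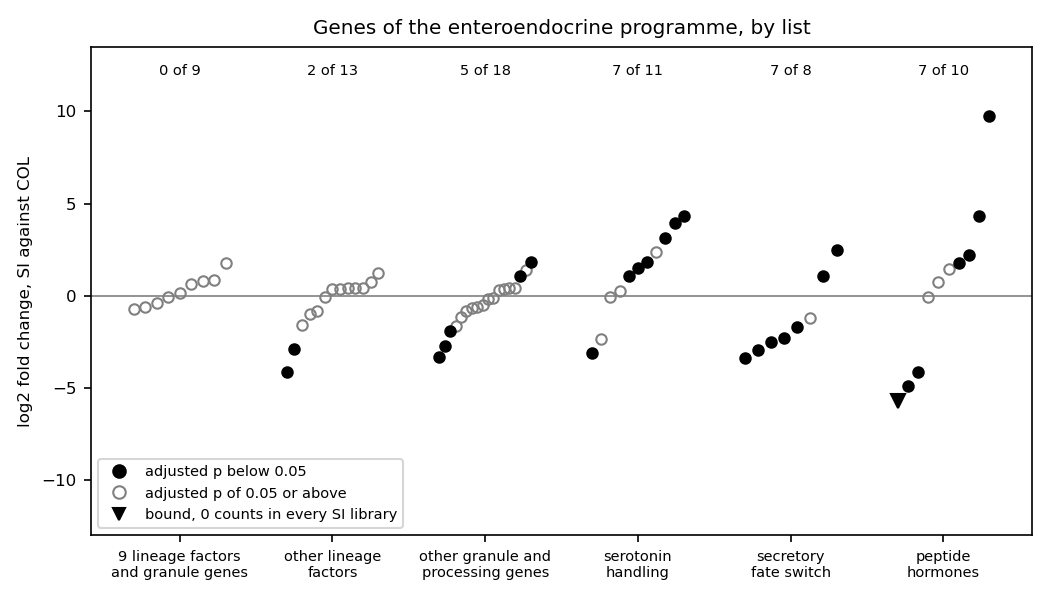
Log2 fold change, SI against COL (y axis), of each gene tested in 6 lists (x axis), ordered within a list; filled points have an adjusted p below 0.05, the number called is given at the top, and the triangle is the bound for Insl5. The 9 genes lie between -0.72 and 1.75 with 0 called, while 7 of 11 serotonin handling genes, 7 of 8 fate switch genes and 7 of 10 hormones were called. Of all genes tested, 28.4% were called.

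Markers of other cells that express some of the 9 genes had low levels beside Chga and Chgb, but not beside the rarest factors. The neuron marker Ret reached 75 counts in a library, against at most 30 for Insm1 and 32 for Pax6. The part of these cells in the values of the 9 genes was not tested. Enteric neurons, which also express chromogranins, had 2 of 8 markers past the filter, and the 8 summed to 1.68 to 4.95 CPM in SI and 1.74 to 2.73 in COL. Glial markers had 0 of 4 past the filter, with Sox10 at 0 in 7 libraries. For the pancreas, where all 6 factors are active, Ins2 was at 0 in 7 libraries with at most 6 counts, but Iapp reached 85 counts and Cela2a 25. Iapp alone passed the filter, with a log2 fold change of -0.14 (edgeR adjusted p = 0.942), and the 7 markers summed to 0.71 to 1.57 CPM in SI and 0.088 to 2.81 in COL. Tuft cells, a neighbouring secretory lineage, had 0 of 4 markers called, where 28.4% of all genes tested were.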

How the data were processed

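RNA libraries of SI and COL crypts from 4 mice were compared. Per the methods and the submitters' processing notes, the authors cleaned read pairs of adapters and poor bases (Trimmomatic 0.36), mapped them to mm10, with mm9 also listed, and counted reads per gene (STAR 2.5.2b). The deposited counts are not normalized. The annotation release and strand setting are not given in the sources used here. Of 45706 gene identifiers, 45143 were given symbols through GENCODE vM21.

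The main test was edgeR 4.0.16 quasi-likelihood (R 4.3.3) with TMM scaling, genes kept by filterByExpr (minimum count 10), tissue as the only term, and Benjamini-Hochberg adjustment over 14491 genes. DESeq2 1.42.0 and limma-voom (limma 3.58.1) were alternatives, as were scaling, filters, mitochondrial share, a block for the mouse, and each library left out. Scripts were tested on simulated data. Depth was 15969428 to 32908060 counts per library, and a count of 0 allows up to 3 counts; such limits cover counting error only. The labels give the donor mouse of each library, so samples pair by animal. The correlation of same-mouse deviations was -0.24, 0.39, -0.08 and 0.33.

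The 9 genes and all gene lists were chosen with earlier results of these data known. Named are all 9, of each other list the genes called (at most 4, by smallest p), and 5 genes most alike over libraries. Replicate libraries differed by more than sampling noise. Promoters come from RefSeq, GRCm38.p6. Some list genes are not reported here by name.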

Additional observations from a re-analysis of the deposited data

Results flagged for a closer look

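Pax6 in SI was the 1 value among 18 groups of 4 libraries (9 genes in 2 tissues) in which a library stood apart. SI2 was at 1.75 CPM, and its gap to the nearest library took up 0.857 of the whole range on the log2(CPM + 0.1) scale, above Dixon's 95% critical value for 4 samples. Chance gives about 1 such group in 20. The library rests on 29 counts of Pax6 against 10 to 11 in the other SI libraries.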

How the results depend on the processing

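No member was called in the main test, with DESeq2, limma-voom, either filter, mitochondrial share as covariate or the replicate block, where edgeR with the mouse as block gave 0 of 9 and a smallest adjusted p of 0.325. The count was 2 with library size alone and 2 in the libraries of lower mitochondrial share, 0 to 1 with each library left out (1 without SI1) and 1 without SI1 and COL2. Over all genes 4116 were called, and 2264 in the libraries of higher mitochondrial share. The other transcription factors went from 2 called to 1 with at least 10 counts in every library, and to 3 in 6 settings (Etv1 without SI2, and Pdx1 without a filter, at higher mitochondrial share, without SI1, without SI4, and without SI1 and COL2). The other granule genes fell from 5 to 3 without a filter, 2 with at least 10 counts in every library and 2 in the libraries of higher mitochondrial share. Signs turned for Neurod1 (-0.10 with library size alone), Pax4 (-0.48 in limma-voom, -0.98 at lower mitochondrial share), Chgb (0.42 at higher share), Pax6 (-0.54 with library size alone, -0.24 at lower share, -0.52 without SI2, -0.03 without COL3) and Insm1 (0.56 at higher share, 0.01 without SI1, 0.10 without SI2, 0.24 without COL3). Pax6 kept its positive sign at 0.69 without SI1 and COL2, and Insm1 its negative sign at -0.42 without SI3. The cause of these changes was not tested. The sex and ratio tests called 0 under each alternative run. Beside Slc18a2, the block changed 2 calls in the lists, bringing in Notch1 (edgeR adjusted p = 0.0465) and Piezo2. Pax4, Pax6 and Insm1 rest on 0 to 48 counts a library, and whether depth or the spread between mice limits them was not tested.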
